A study of Homo sapiens with 4 samples.

Results

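The genes described here encode the proteins of homologous recombination, of Fanconi interstrand crosslink repair and of the ATM and ATR checkpoints, measured in HEL cells with and without knockdown of AFF4. They were taken by gene symbol from a fixed list of 39 genes, and all 39 were present among the 28103 symbols of the count table. Of these, 38 passed the filter on low counts, among 13572 genes that did. The list was chosen with earlier results of these data known. Its contrasts with all tested genes are therefore descriptions and not independent support. HEL is a human erythroleukaemia line that the labels describe as an erythroblast. The 4 poly(A) RNA-seq libraries were 2 labelled AFF4 knockdown and 2 labelled Ctrl, of wild-type genotype. Both groups grew in RPMI-1640 with fetal bovine serum. How and for how long AFF4 was knocked down is not stated in the labels. They also do not tie the replicates to separate cultures, and the p-values reflect just the spread among these 4 libraries, which may be technical.

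Homologous recombination repairs a broken chromosome by copying the sister chromatid, and is therefore used mainly in S and G2 phase. Nucleases first cut back the broken end, BRCA proteins then prepare the exposed strand for exchange with the sister, and helicases and nucleases finally separate the joined molecules. The Fanconi pathway recognises DNA strands crosslinked to each other, marks the site by ubiquitin on the FANCD2 and FANCI pair, and hands the resulting break to recombination. The ATM and ATR kinases signal breaks and stalled replication forks to CHEK2 and CHEK1 and hold the cell cycle. AFF4 holds together the super elongation complex, through which P-TEFb reaches paused RNA polymerase II.

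The targeted gene itself was lower in both libraries labelled knockdown. AFF4 had 18.7 and 18.9 CPM in the knockdown libraries, against 88.3 and 69.2 CPM in Ctrl 1 and Ctrl 2, where CPM is the count scaled to the size of its library with TMM factors. It fell to 18.8 ± 0.187 CPM in the knockdown, against 78.7 ± 13.6 CPM in Ctrl (SD, n = 2 each). On the log2 scale its fold change was -2.07 ± 0.19 (SE; adjusted p = 0.0268 in edgeR's quasi-likelihood test), and with a filter of at least 5 CPM in 2 libraries the adjusted p was 0.0552. Library totals ran from 14903878 to 19129008 counts, and tested members had between 119 and 6106 counts in a library. All 10 erythroid markers and, with the exception of GP1BB, all 6 megakaryocyte markers were detected. The summed level of the erythroid list was 8819.5 and 8633 CPM in the knockdown against 12026 and 13437 CPM in Ctrl, and its lower sum in the knockdown came from the fetal globins HBG1 and HBG2, which summed to 6479 and 6287 CPM in the knockdown against 10041 and 11399.8 CPM in Ctrl. The other 8 erythroid markers summed to 2341 and 2347 CPM in the knockdown against 1985 and 2037 CPM in Ctrl, that is, higher in both knockdown libraries. The megakaryocyte list summed to 1481 and 1602 CPM in the knockdown against 1609.9 and 2432 CPM in Ctrl. The part of these shifts in the members' values was not tested. Of the markers of other cell types, 3 of 6 T cell genes (CD3D, CD3E and CD3G) and 4 of 6 fibroblast genes (COL1A2, COL3A1, DCN and LUM) were at 0 in all 4 libraries. Others on these lists were expressed: CD4 had 81.1 and 84.3 CPM in the knockdown against 122 and 138 CPM in Ctrl. Over the 4 libraries the endothelial markers ESAM and KDR had 300.3 to 417 and 67.7 to 76.6 CPM, the epithelial keratin KRT18 28.9 to 40.1 CPM, and the B cell gene CD79B 5.68 to 10.3 CPM.

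The Ctrl libraries stood apart from each other more than the knockdown libraries did, and this touches nearly every value below. Of the 38 tested members, 31 were higher in Ctrl 1 than in Ctrl 2, with a median log2 difference of -0.39 (Ctrl 2 minus Ctrl 1). The knockdown libraries differed by a median of -0.049 (knockdown 2 minus knockdown 1), and the SD between libraries was larger in Ctrl for 37 of the 38. The difference between the Ctrl libraries followed base composition. Of 29 members whose longest annotated transcript had a GC content under the median of all tested genes (48.0%), 28 were higher in Ctrl 1. Of the 9 members richer in GC, 3 were. Across all 13162 tested genes with a GC value, Spearman's rho of the Ctrl 2 minus Ctrl 1 difference with GC content was 0.83, and over the 38 members it was 0.84. Between the knockdown libraries the same rho was 0.41 over all genes and 0.56 over the members. These are descriptions across genes of the same libraries, which share depth and base composition, and genes are not independent replicates.

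Set against both Ctrl libraries, the recombination, Fanconi and checkpoint genes lay slightly lower in the knockdown, and 0 of 38 passed the test in either direction (edgeR, adjusted p under 0.05, adjusted over all tested genes). In this comparison 0.641% of all tested genes passed, 0.295% lower and 0.346% higher. At an unadjusted p under 0.05, 5 members were lower and 0 higher, against 8.19% and 6.79% of all tested genes. These 5 make up 13.2% of the members. DESeq2 called 1 member lower, BRCA2, and 0 higher, where it called 1.64% of all tested genes lower and 1.39% higher. limma-voom called 0, against 0.287% lower and 0.391% higher. The log2 fold change was negative for 33 of the 38, against 51.2% of all tested genes, with a median of -0.12 against -0.0089. This count was lowest without Ctrl 1, where 22 of the 38 were negative (57.9%, against 50.1% of all genes tested there). Without Ctrl 2 33 were negative (against 49.2%), without knockdown 1 31 (against 47.6%) and without knockdown 2 33 (against 52.1%). After removal of the GC trend from each library 32 were negative (84.2%, against 49.6%). In 17 members both knockdown libraries lay below both Ctrl libraries (44.7%, against 23.0% of all tested genes), and in 2 both lay above (background 23.1%). In the remaining 19 the groups overlapped. The summed level of the tested members was 2679.8 and 2580.2 CPM in the knockdown libraries, against 3317 CPM in Ctrl 1 and 2657 CPM in Ctrl 2, so the sum in knockdown 1 lay between the Ctrl libraries and the sum in knockdown 2 below both. In bulk RNA, fewer cells in S and G2 phase and less RNA per cell cannot be told apart. The 95% intervals of the members' log2 fold changes had a median width of 0.89, and those of all members but the 5 with an unadjusted p under 0.05 covered both signs.

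**Figure D1:**
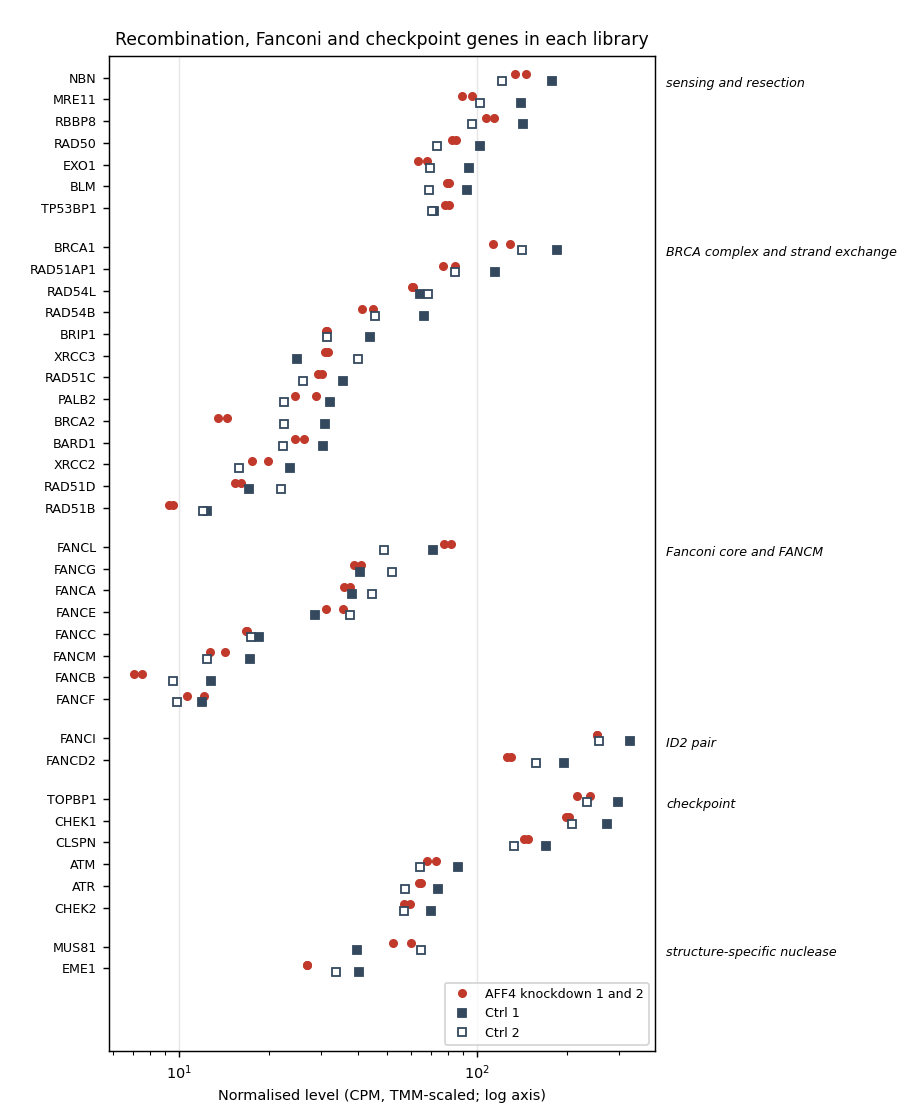
Level of each of the 38 tested genes in each library, in CPM on a log axis, grouped by role and ordered by the Ctrl mean within a role; red circles are the knockdown libraries, filled squares Ctrl 1 and open squares Ctrl 2. The knockdown circles sit close together, and for 31 of the 38 genes the filled square lies to the right of the open one.

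The 5 members lower at an unadjusted p under 0.05 belong to different steps of the pathway. BRCA2, which acts on the exposed strand before strand exchange, had the lowest log2 fold change of the members, and FANCB, a subunit of the Fanconi ubiquitin ligase, the next. FANCD2 is the substrate of that ligase, EME1 is the partner of the MUS81 nuclease, and BRCA1 promotes resection and recruits BRCA2 through PALB2. In all 5 both knockdown libraries lay below both Ctrl libraries, and the log2 fold change was negative in each of 14 alternative fits. Neither trait is particular to them. Of the 33 members with a negative log2 fold change, 19 kept that sign in all 14 fits, and 17 had both knockdown libraries below both Ctrl libraries. Without Ctrl 1 the log2 fold changes of the 5 lay between -0.68 for BRCA2 and -0.22 for BRCA1. Without Ctrl 2 they lay between -1.14 for BRCA2 and -0.58 for EME1. After removal of the GC trend from each library they lay between -0.88 for BRCA2 and -0.41 for BRCA1. These are fits to the same libraries, and the genes were singled out by their p, so this does not support the difference independently.

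Promoters are shown for these 5 genes and for FANCL, the member with the highest log2 fold change, as the stretch from 250 bases before to 50 after the annotated start (RefSeq, GRCh38.p14, 5′ to 3′). Capitals mark matches, on either strand, to the letters of 4 motifs: TTTNNCGC (E2F), TTTGAA (the cell cycle homology region), CCAAT, and CTTCCGG (ETS). The ETS letters were added after the sequences had been read. No match overlapped another. BRCA1 has a further annotated start, not printed here, with no match.
BRCA2, chr13:32315258-32315557, plus strand: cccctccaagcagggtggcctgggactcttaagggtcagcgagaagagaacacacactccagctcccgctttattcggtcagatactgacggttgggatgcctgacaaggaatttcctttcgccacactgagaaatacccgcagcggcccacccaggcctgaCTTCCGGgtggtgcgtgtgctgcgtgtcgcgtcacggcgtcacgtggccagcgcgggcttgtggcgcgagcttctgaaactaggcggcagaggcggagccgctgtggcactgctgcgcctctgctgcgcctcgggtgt
FANCB, chrX:14873020-14873319, minus strand: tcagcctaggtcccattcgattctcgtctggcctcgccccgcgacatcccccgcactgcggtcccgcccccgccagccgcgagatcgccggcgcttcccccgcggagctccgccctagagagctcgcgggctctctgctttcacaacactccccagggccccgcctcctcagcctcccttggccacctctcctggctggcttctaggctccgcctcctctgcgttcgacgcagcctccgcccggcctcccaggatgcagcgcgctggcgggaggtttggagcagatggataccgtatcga
FANCD2, chr3:10026187-10026486, plus strand: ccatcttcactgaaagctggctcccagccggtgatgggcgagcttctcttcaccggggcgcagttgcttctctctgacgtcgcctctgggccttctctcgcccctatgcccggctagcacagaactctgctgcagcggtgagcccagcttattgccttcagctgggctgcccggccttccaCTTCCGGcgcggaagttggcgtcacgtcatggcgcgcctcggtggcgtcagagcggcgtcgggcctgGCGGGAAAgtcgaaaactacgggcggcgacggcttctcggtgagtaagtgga
EME1, chr17:50372979-50373278, plus strand: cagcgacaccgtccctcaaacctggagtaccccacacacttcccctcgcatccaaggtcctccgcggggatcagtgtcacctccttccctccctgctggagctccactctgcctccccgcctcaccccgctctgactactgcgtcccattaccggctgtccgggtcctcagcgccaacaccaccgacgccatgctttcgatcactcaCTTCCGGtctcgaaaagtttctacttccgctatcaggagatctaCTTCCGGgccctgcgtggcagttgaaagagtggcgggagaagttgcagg
BRCA1, chr17:43125315-43125614, minus strand: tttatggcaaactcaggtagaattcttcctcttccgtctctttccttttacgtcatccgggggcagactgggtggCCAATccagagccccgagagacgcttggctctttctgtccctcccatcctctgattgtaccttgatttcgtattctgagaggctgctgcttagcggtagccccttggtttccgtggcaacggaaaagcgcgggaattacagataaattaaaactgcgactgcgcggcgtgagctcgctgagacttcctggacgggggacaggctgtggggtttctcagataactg
FANCL, chr2:58241276-58241575, minus strand: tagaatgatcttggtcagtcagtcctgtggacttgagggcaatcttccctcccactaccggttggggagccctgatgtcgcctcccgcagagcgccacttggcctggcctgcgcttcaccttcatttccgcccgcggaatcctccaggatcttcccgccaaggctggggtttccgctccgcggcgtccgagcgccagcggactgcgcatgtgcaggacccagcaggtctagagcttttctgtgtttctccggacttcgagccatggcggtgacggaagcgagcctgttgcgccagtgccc
FANCD2 held the E2F letters across its start and 1 ETS match, EME1 held 2 ETS matches and BRCA2 1, and the BRCA1 start shown held CCAAT. FANCB and FANCL held none of the 4. Of the 39 members 36 had an entry, with 48 promoters in all. The E2F letters were present in 18.8% of the members' promoters and in 6.89% of 35116 promoters of the same length. The corresponding shares were 6.25% and 15.2% for TTTGAA, and 47.9% and 34.6% for CCAAT. For the ETS letters they were 25% and 10.3%. Because the ETS letters were picked after sequences had been read, their share is not a comparison on equal terms. Separate starts of the same gene were counted as separate promoters. A match in this window is a description and not a binding site.

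Among the 7 genes of break sensing and end resection, 6 had a negative log2 fold change and 0 passed the test, with a median of -0.10. The median was 0.19 without Ctrl 1 and -0.34 without Ctrl 2, so its sign turned with the Ctrl library used. MRE11, the nuclease that opens resection together with RAD50 and NBN, had 96.3 and 88.8 CPM in the knockdown libraries, against 140.0 and 102 CPM in Ctrl 1 and Ctrl 2. Both knockdown values lay below both Ctrl values, by a margin smaller than the gap between the Ctrl libraries. Its log2 fold change was -0.39 ± 0.19 (SE; adjusted p = 0.398), at -0.14 without Ctrl 1 and -0.60 without Ctrl 2. EXO1, a long-range resection exonuclease, had 68.2 and 63.6 CPM in the knockdown libraries, against 93.8 and 69.6 CPM in Ctrl 1 and Ctrl 2, again without overlap. Its log2 fold change was -0.31 ± 0.19 (SE; adjusted p = 0.512), at -0.075 without Ctrl 1 and -0.51 without Ctrl 2. TP53BP1, which protects ends from resection, lay on the other side with 78.4 and 80.8 CPM in the knockdown libraries, against 71.6 and 70.4 CPM in Ctrl 1 and Ctrl 2. Its log2 fold change was 0.16 ± 0.15 (SE; adjusted p = 0.695), the knockdown values being the higher ones, and its Ctrl libraries were close to each other. RAD50, NBN, the resection cofactor RBBP8 and the helicase BLM lay between Ctrl 1 and Ctrl 2 in both knockdown libraries. Their log2 fold changes were -0.071, -0.10, -0.11 and -0.021. For these 4 the sign rested on which Ctrl library was used. Their values were 0.19, 0.21, 0.21 and 0.21 without Ctrl 1 and -0.29, -0.34, -0.36 and -0.22 without Ctrl 2.

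The BRCA complex and strand exchange factors were lower in the knockdown in the point estimate throughout, with 13 of 13 negative and a median of -0.26, although 0 passed the test. The median was -0.078 without Ctrl 1 and -0.34 without Ctrl 2. In 8 of them (61.5%) both knockdown libraries lay below both Ctrl libraries, against 23.0% of all tested genes. BRCA2 (chromosome 13, 32315474 to 32400266, plus strand, GRCh38) had 14.5 and 13.5 CPM in the knockdown libraries, against 31.0 and 22.5 CPM in Ctrl 1 and Ctrl 2. The lower Ctrl value was well above the higher knockdown value. Its means were 14.0 ± 0.703 CPM in the knockdown and 26.7 ± 6.02 CPM in Ctrl (SD, n = 2 each). The fitted log2 fold change was -0.93 ± 0.22 (SE; adjusted p = 0.113) with a 95% interval of -1.45 to -0.41. BRCA2 was called lower by DESeq2 (adjusted p = 0.0154) and by edgeR with no filter on low counts (adjusted p = 0.0111). Without the filter 2.15% of all genes with a count were called lower and 1.74% higher, and BRCA2 was the one member called. Its log2 fold change was -0.68 without Ctrl 1 and -1.14 without Ctrl 2. BRCA1 (chromosome 17, 43044295 to 43170245, minus strand) had 129 and 113 CPM in the knockdown libraries, against 186 and 141 CPM in Ctrl 1 and Ctrl 2. Its means were 121 ± 10.8 CPM in the knockdown and 164 ± 31.6 CPM in Ctrl (SD, n = 2 each). The fitted log2 fold change was -0.44 ± 0.18 (SE; adjusted p = 0.314) with an interval of -0.86 to -0.016. It was -0.22 without Ctrl 1 and -0.62 without Ctrl 2.

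BARD1, which forms the BRCA1 ubiquitin ligase, and PALB2, which joins BRCA1 to BRCA2, showed little of this difference. BARD1 had 24.6 and 26.3 CPM in the knockdown libraries, against 30.4 and 22.3 CPM in Ctrl 1 and Ctrl 2. PALB2 had 28.9 and 24.6 CPM in the knockdown libraries, against 32.0 and 22.5 CPM in Ctrl 1 and Ctrl 2. In both genes the knockdown values lay between the Ctrl values, with log2 fold changes of -0.054 and -0.03. The helicase BRIP1 had a log2 fold change of -0.26 ± 0.21 (SE; adjusted p = 0.646), and its knockdown values of 31.4 and 31.2 CPM were just below or at the 31.4 CPM of Ctrl 2, against 43.6 CPM in Ctrl 1. Its log2 fold change was -0.00089 without Ctrl 1 and -0.48 without Ctrl 2. Of the paralog group RAD51B, RAD51C, RAD51D, XRCC2 and XRCC3, which assists strand exchange, RAD51B had 9.56 and 9.27 CPM in the knockdown libraries, against 12.4 and 12.1 CPM in Ctrl 1 and Ctrl 2. Here the Ctrl libraries nearly coincided, and the log2 fold change was -0.38 ± 0.19 (SE; adjusted p = 0.418), at -0.35 without Ctrl 1 and -0.40 without Ctrl 2. RAD51D had -0.31 ± 0.21 (SE; adjusted p = 0.559), while RAD51C, XRCC2 and XRCC3 had -0.048, -0.084 and -0.049. XRCC3 was negative without Ctrl 1 (-0.35) and positive without Ctrl 2 (0.33). Of its exonic bases, 76.7% overlap KLC1 on the opposite strand. RAD51C and XRCC2 turned positive without Ctrl 1 (0.20 and 0.24), as did BARD1 and PALB2 (0.19 and 0.25). RAD51AP1, which stimulates strand exchange, had -0.31 ± 0.19 (SE; adjusted p = 0.512), and the motor proteins RAD54B and RAD54L had -0.38 ± 0.22 (SE; adjusted p = 0.480) and -0.12 ± 0.15 (SE; adjusted p = 0.797). The values of RAD51D, RAD51AP1, RAD54B and RAD54L were -0.48, -0.066, -0.078 and -0.17 without Ctrl 1 and -0.12, -0.51, -0.63 and -0.077 without Ctrl 2. RAD54B shares 59.1% of its exonic bases with FSBP on the same strand, so its count may not hold all of its reads.

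The subunits of the Fanconi ubiquitin ligase and its anchor FANCM differed among themselves in direction. Of 8 core genes 5 were negative and 3 positive, with 0 past the test and a median of -0.12, which was -0.10 without Ctrl 1 and -0.068 without Ctrl 2. FANCB (chromosome X, 14835961 to 14873069, minus strand, GRCh38) had 7.52 and 7.07 CPM in the knockdown libraries, against 12.9 and 9.57 CPM in Ctrl 1 and Ctrl 2. The groups did not overlap, and the log2 fold change was -0.62 ± 0.23 (SE; adjusted p = 0.263) with an interval of -1.15 to -0.092. It was -0.39 without Ctrl 1 and -0.82 without Ctrl 2. Its counts were low, 136 and 119 in the knockdown against 240 and 143 in Ctrl. FANCL (chromosome 2, 58159243 to 58241372, minus strand), the subunit that transfers ubiquitin, was the member with the highest log2 fold change. It had 81.6 and 77.5 CPM in the knockdown libraries, against 71.3 and 48.7 CPM in Ctrl 1 and Ctrl 2. Both knockdown values were above both Ctrl values, with a log2 fold change of 0.41 ± 0.21 (SE; adjusted p = 0.433) and an interval of -0.087 to 0.90. It was 0.71 without Ctrl 1 and 0.16 without Ctrl 2, and it was called higher in the first of these fits. The other scaffold subunits FANCA, FANCG, FANCC, FANCE and FANCF had log2 fold changes of -0.17, -0.22, -0.094, 0.017 and 0.058, and the translocase FANCM had -0.14. FANCA and FANCC had knockdown values below both Ctrl values. The values of FANCA, FANCG and FANCC were -0.28, -0.39 and -0.043 without Ctrl 1 and -0.062, -0.027 and -0.14 without Ctrl 2. In the other 4 the groups overlapped, and FANCE, FANCF and FANCM changed sign with the Ctrl library used (-0.16, 0.21 and 0.13 without Ctrl 1, and 0.22, -0.075 and -0.36 without Ctrl 2).

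The FANCD2 and FANCI pair, which the ligase modifies and which clamps DNA at a crosslink, lay lower in both genes without a call. FANCD2 (chromosome 3, 10026414 to 10101930, plus strand, GRCh38) had 129.7 and 126 CPM in the knockdown libraries, against 195.8 and 158 CPM in Ctrl 1 and Ctrl 2. Its means were 128 ± 2.73 CPM in the knockdown and 177 ± 26.7 CPM in Ctrl (SD, n = 2 each). The fitted log2 fold change was -0.47 ± 0.16 (SE; adjusted p = 0.235) with an interval of -0.84 to -0.10, and it was -0.30 without Ctrl 1 and -0.62 without Ctrl 2. FANCI had 253 and 252 CPM in the knockdown libraries, against 327 and 257 CPM in Ctrl 1 and Ctrl 2. The knockdown values were just under that of Ctrl 2 and well under that of Ctrl 1. Its log2 fold change was -0.21 ± 0.16 (SE; adjusted p = 0.615), at -0.023 without Ctrl 1 and -0.37 without Ctrl 2.

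Of the 6 tested checkpoint genes, 1 had both knockdown libraries below both Ctrl libraries (16.7%, against 23.0% of all tested genes). In the test 0 passed. All 6 log2 fold changes were negative, with a median of -0.11, which was 0.083 without Ctrl 1 and -0.28 without Ctrl 2. ATM, the kinase activated at breaks, had 72.9 and 68.1 CPM in the knockdown libraries, against 86.6 and 64.5 CPM in Ctrl 1 and Ctrl 2. ATR, the kinase activated by exposed single strands, had 64.8 and 63.7 CPM in the knockdown libraries, against 74.1 and 57.3 CPM in Ctrl 1 and Ctrl 2. In both the knockdown values lay between the Ctrl values, and the log2 fold changes were -0.10 ± 0.19 (SE; adjusted p = 0.880) for ATM and -0.034 ± 0.18 (SE; adjusted p = 0.957) for ATR. Their 95% intervals were -0.54 to 0.34 and -0.46 to 0.39. CHEK1, the effector kinase of ATR, had 204 and 199 CPM in the knockdown libraries, against 273 and 209 CPM in Ctrl 1 and Ctrl 2. This is the gene of the group whose knockdown values were both the lower ones, with a log2 fold change of -0.26 ± 0.17 (SE; adjusted p = 0.539). CHEK2, the effector kinase of ATM, had 59.8 and 56.8 CPM in the knockdown libraries, against 70.03 and 57.0 CPM in Ctrl 1 and Ctrl 2, a log2 fold change of -0.12 ± 0.17 (SE; adjusted p = 0.826). The ATR activator TOPBP1 had 239 and 217 CPM in the knockdown libraries, against 298 and 234 CPM in Ctrl 1 and Ctrl 2, a log2 fold change of -0.22 ± 0.16 (SE; adjusted p = 0.597). CLSPN, the adaptor through which ATR acts on CHEK1, had -0.061 ± 0.16 (SE; adjusted p = 0.918). Without Ctrl 1 the values were 0.13 for ATM, 0.17 for ATR, 0.035 for CHEK2 and 0.13 for CLSPN, all 4 of the opposite sign, and -0.049 for CHEK1 and -0.039 for TOPBP1. Without Ctrl 2 all 6 were negative, at between -0.44 for CHEK1 and -0.21 for ATR. ATRIP, the partner of ATR, had 2 and 3 counts in the knockdown against 5 and 2 in Ctrl and was not tested. It shares 1515 exonic bases with TREX1 on the same strand, so a low count here does not show a low level.

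MUS81 and EME1 form the nuclease that cuts stalled forks and joined molecules, and their values lay on different sides of 0. EME1 (chromosome 17, 50373220 to 50381483, plus strand, GRCh38) had 26.9 and 26.9 CPM in the knockdown libraries, against 40.3 and 33.6 CPM in Ctrl 1 and Ctrl 2. Its means were 26.9 ± 0.0306 CPM in the knockdown and 36.9 ± 4.71 CPM in Ctrl (SD, n = 2 each). The fitted log2 fold change was -0.46 ± 0.18 (SE; adjusted p = 0.301) with an interval of -0.89 to -0.031. It was -0.32 without Ctrl 1 and -0.58 without Ctrl 2. MUS81 had 52.2 and 60.0 CPM in the knockdown libraries, against 39.5 and 64.7 CPM in Ctrl 1 and Ctrl 2. The Ctrl libraries lay on either side of the knockdown, and the log2 fold change was 0.11 ± 0.25 (SE; adjusted p = 0.903). It was -0.20 without Ctrl 1 and 0.50 without Ctrl 2. The difference between the subunits was not tested.

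**Figure D2:**
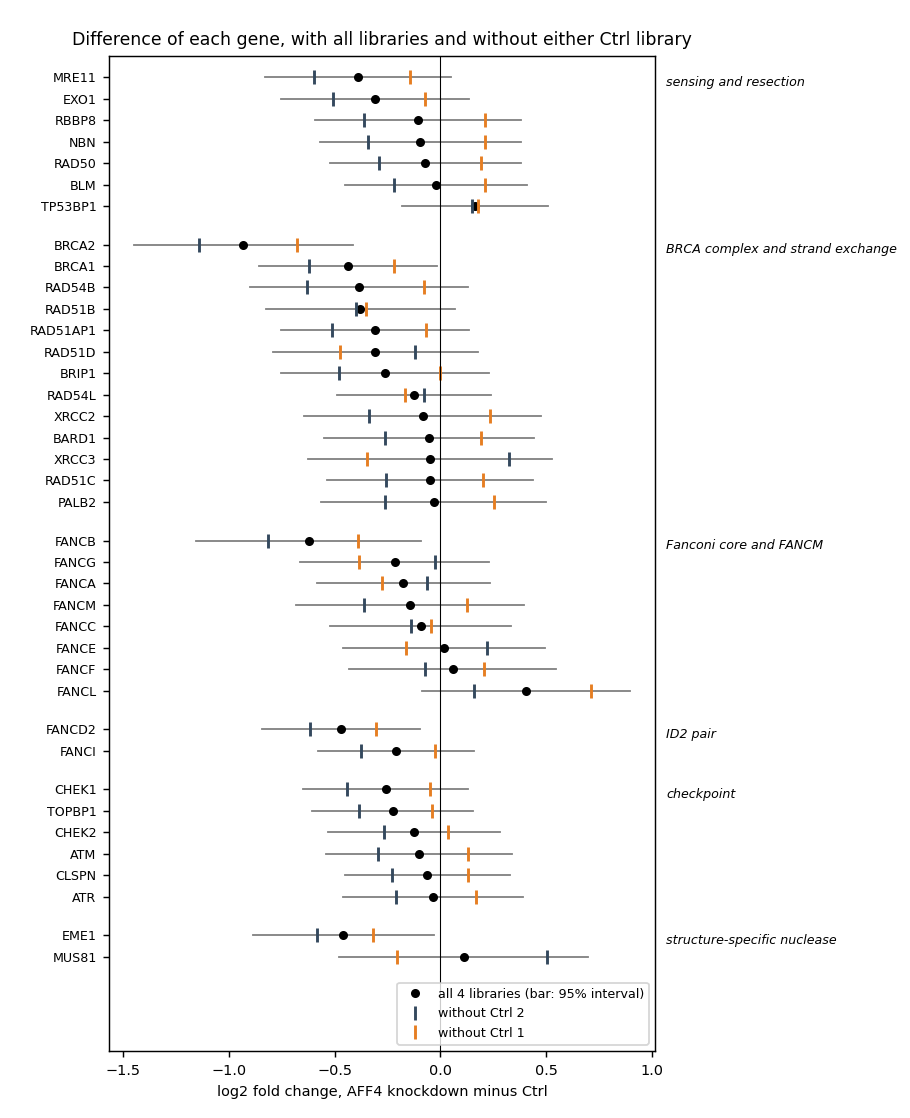
log2 fold change (knockdown minus Ctrl) of each tested gene by role; black points are the fit to all 4 libraries with grey 95% intervals, and coloured ticks are the fits without Ctrl 1 (orange) or without Ctrl 2 (dark blue). The ticks lie on opposite sides of 0 for genes such as RAD50 (0.19 and -0.29). They lie on the same side for others, among them BRCA2, FANCB, FANCD2, EME1 and BRCA1. Of the 38 tested genes, 21 kept their sign in every alternative fit.

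Which members were called depended on the Ctrl library used. Without Ctrl 1, 11 members were called lower and 5 higher, that is 28.9% lower against 22.5% of all genes tested there, of which 21.5% were higher. Without Ctrl 2, 27 were called lower and 2 higher, that is 71.1% lower against 23.9%, with 24.5% of all genes higher. In these fits the remaining Ctrl library is assumed to vary like the closely matched knockdown libraries. Joint calls of these fits are not counted here, because their share over all tested genes was not worked out. Without knockdown 1, 0 members were called, against 0.0791% of all genes lower and 0.252% higher. Without knockdown 2, 0 were called, against 0.108% and 0.258%. The median over the 38 was -0.041 without Ctrl 1 and -0.29 without Ctrl 2. The shares over all genes are not matched to the members in GC content, as 29 of the 38 lay under the median GC. Over all tested genes, the median log2 ratio of the knockdown to Ctrl 1 was -0.24 in the lowest of 10 bins of GC content. In the highest bin it was 0.39. Against Ctrl 2 these medians were 0.17 and -0.39. How much of the members' shares follows GC content was not tested.

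After a smooth trend with transcript GC content was removed from each library, 12 members were called lower and 1 higher, with the median at -0.13. This is 31.6% lower against 13.8% of all tested genes, and 13.2% of all genes were higher. The genes called lower were MRE11 (-0.35), EXO1 (-0.29), BRCA1 (-0.41), BRCA2 (-0.88), RAD51AP1 (-0.26), RAD54B (-0.33), FANCB (-0.57), FANCD2 (-0.46), FANCI (-0.20), CHEK1 (-0.23), TOPBP1 (-0.21) and EME1 (-0.48). FANCL was called higher (0.45). The adjusted p of BRCA2 in this edgeR fit was 0.000959 and that of FANCD2 was 0.00114. The correction takes the GC trend to be technical, which was not tested, and removes it from the spread between libraries. Without the correction 0.641% of all tested genes were called in either direction. These smaller p-values still rest on 2 libraries in each group. The difference between knockdown and Ctrl had a rho with GC content of 0.27 over the 38 members and of -0.004 over all tested genes. Its rho with the genomic span of the gene was -0.085 over the members.

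**Figure D3:**
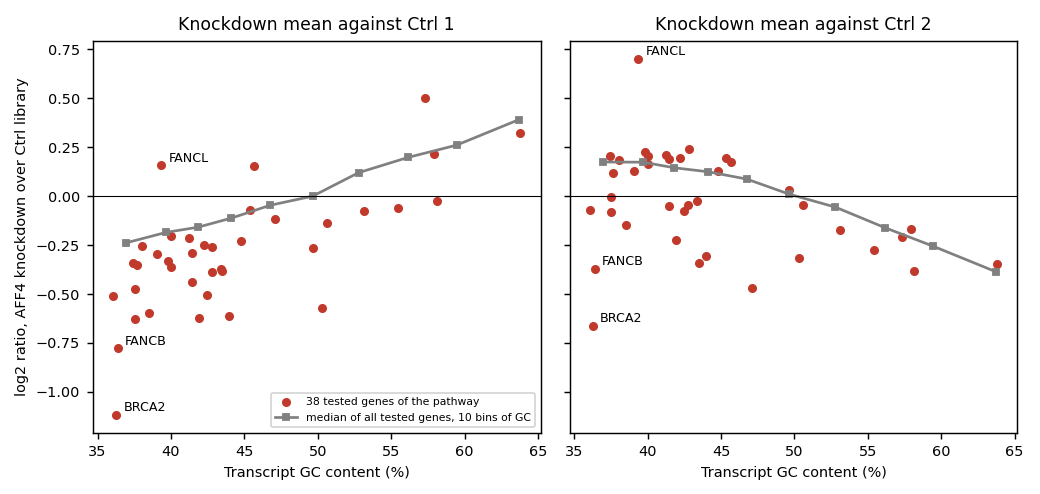
log2 ratio of the knockdown mean over Ctrl 1 (left) or Ctrl 2 (right) against transcript GC content; red points are the 38 tested genes, and the grey line is the median of all tested genes in 10 bins of GC. The grey line rises with GC against Ctrl 1 and descends against Ctrl 2, BRCA2 and FANCB lie below it in both panels, and FANCL lies above it in both.

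Per length, the members spanned a wide range. Levels as CPM per kilobase of annotated exons ran from 1.14 to 33.0 in the knockdown and from 1.40 to 38.97 in Ctrl. The highest levels belonged to RAD51AP1 (31.5 and 38.97 in the knockdown and in Ctrl), FANCI (32.5 and 37.6), CHEK1 (30.7 and 36.8), TOPBP1 (31.2 and 36.4), CLSPN (27.0 and 28.1) and FANCL (33.0 and 24.9). The lowest belonged to FANCC (1.32 and 1.40), RAD51B (1.26 and 1.64), RAD51D (1.40 and 1.73), FANCM (1.59 and 1.76) and BRCA2 (1.14 and 2.18). BRCA2 was the lowest of the members in the knockdown and FANCC in Ctrl. The exon lengths come from all annotated transcripts and are not those of the authors' counting, so neighbours in this order are not separated. Exons overlap a neighbour on the opposite strand over 28.7% of the exonic bases of TP53BP1 (TUBGCP4), 25.1% of RAD54L (LRRC41), 23.6% of FANCA (ZNF276), 18.7% of FANCL (VRK2), 16.4% of EME1 (LRRC59) and 13.9% of MUS81 (CFL1). Whether reads were counted by strand is not stated, so reads of such neighbours may be held in these values.

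Other genes of DNA repair and of the cell cycle were read beside the members from lists chosen by function. These lists were also chosen with earlier results of these data known, so their contrasts with all tested genes are descriptions. In the edgeR test over all genes, 0 genes of these lists passed. At an unadjusted p under 0.05, 8.19% of all tested genes were below and 6.79% above Ctrl. The other recombination and Fanconi genes had 17 of 36 negative, a median of 0.017 and, at an unadjusted p under 0.05, 3 below and 0 above Ctrl. Among them UBE2T, the conjugating enzyme that works with FANCL, had 68.2 and 69.6 CPM in the knockdown libraries, against 119 and 89.0 CPM in Ctrl 1 and Ctrl 2, a log2 fold change of -0.60 ± 0.18 (SE; adjusted p = 0.192). The higher ones with the smallest p were WDR48 (0.28), a cofactor of the FANCD2 deubiquitinase USP1, and EME2 (0.92), an alternative partner of MUS81 with few counts. The values of UBE2T, WDR48 and EME2 were -0.37, 0.44 and 0.19 without Ctrl 1 and -0.79, 0.15 and 2.06 without Ctrl 2. Against Ctrl 1 alone the median of this list was -0.12, and against Ctrl 2 alone it was 0.034. The other checkpoint and damage signalling genes had 16 of 26 negative, a median of -0.12 and, at an unadjusted p under 0.05, 2 below and 0 above Ctrl. The lower ones with the smallest p were the CDK-activating phosphatases CDC25B (-0.68, adjusted p = 0.161) and CDC25C (-0.73, adjusted p = 0.179), and the higher ones were the shieldin subunit SHLD3 (0.41) and the ubiquitin ligase RNF168 (0.24).

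End joining had 7 of 13 negative, a median of -0.013 and, at an unadjusted p under 0.05, 1 below and 1 above Ctrl. POLQ, the polymerase of microhomology-mediated joining, had 37.5 and 37.95 CPM in the knockdown libraries, against 61.4 and 47.3 CPM in Ctrl 1 and Ctrl 2, a log2 fold change of -0.53 ± 0.19 (SE; adjusted p = 0.258). DNA ligase LIG3, used in the same route and in single-strand repair, had 148 and 151 CPM in the knockdown libraries, against 91.6 and 104 CPM in Ctrl 1 and Ctrl 2, a log2 fold change of 0.62 ± 0.15 (SE; adjusted p = 0.113). PRKDC, the kinase of classical end joining, had -0.27, and its DNA-binding partner XRCC6 had 0.19. Base and nucleotide excision repair had 9 of 24 negative, a median of 0.029 and, at an unadjusted p under 0.05, 1 below and 2 above Ctrl. There the endonuclease APEX1 (0.43) and the glycosylase TDG (0.45) were the higher ones with the smallest p, and the lesion sensor DDB2 (-0.65) was on the lower side. Mismatch repair had 4 of 7 negative, a median of -0.034 and, at an unadjusted p under 0.05, 0 below and 0 above Ctrl, its values running from -0.12 for MSH3 to 0.21 for MLH3. PMS1 had -0.072. Without Ctrl 1 MSH3 and PMS1 had the opposite sign (0.12 and 0.19), and without Ctrl 2 MLH3 had (-0.0055). The values of POLQ, PRKDC, XRCC6, TDG and DDB2 kept their sign and were -0.33, -0.14, 0.30, 0.65 and -0.86 without Ctrl 1 and -0.70, -0.38, 0.082, 0.28 and -0.41 without Ctrl 2. The list medians were 0.086 against Ctrl 1 and -0.044 against Ctrl 2 for excision repair, -0.17 and 0.18 for mismatch repair, and -0.047 and -0.072 for end joining.

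The S phase replication genes had 25 of 32 negative, a median of -0.15 and, at an unadjusted p under 0.05, 2 below and 0 above Ctrl. The members' median was -0.12, and the order of these medians turned with the Ctrl library. Against Ctrl 1 alone it was -0.29 for the members and -0.20 for the S phase genes, and against Ctrl 2 alone -0.044 and -0.11. The origin subunit ORC1 (-0.40) and the clamp loader RFC5 (-0.39) had the smallest p on its lower side, and the cyclin CCNE1 (0.30) and the flap nuclease FEN1 (0.17, at 0.07 without Ctrl 1 and 0.27 without Ctrl 2) on its higher side. The G2 and M phase genes had 28 of 28 negative, a median of -0.53 and, at an unadjusted p under 0.05, 24 below and 0 above Ctrl. Of all tested genes, 8.19% were below and 6.79% above Ctrl at that p. Its median was -0.68 against Ctrl 1 alone and -0.39 against Ctrl 2 alone. All 28 had both knockdown libraries below both Ctrl libraries, against 17 of 38 members, 13 of 32 S phase genes and 23.0% of all tested genes. The lowest p in that list were those of the cytokinesis scaffold ANLN (-1.12, adjusted p = 0.0636) and the kinesin KIF2C (-0.73, adjusted p = 0.0641). The summed level of the G2 and M list was 5211 and 5068 CPM in the knockdown libraries, against 8158 and 6698 CPM in Ctrl 1 and Ctrl 2. Its part in the members' values was not tested.

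**Figure D4:**
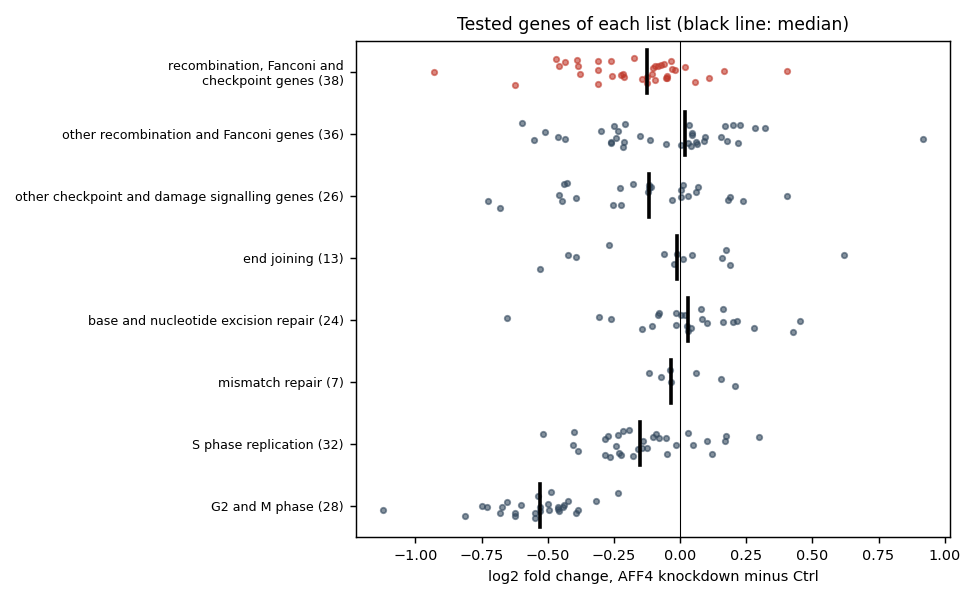
log2 fold change (knockdown minus Ctrl) of every tested gene of each list, with the number of genes in brackets and the median as a black line; vertical scatter within a list only separates the points. The members have a median of -0.12, the S phase genes one of -0.15, with an order that turns with the Ctrl library used, and the G2 and M phase genes lie at -0.53 with all 28 below 0.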

How the data were processed

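Poly(A) RNA from HEL cells was sequenced in 4 libraries. The deposited values are whole-number read counts per gene symbol, not normalised. HISAT2 2.1.0, featureCounts 1.6.1, fastp 0.13.1 and build hg38 are named in the submitters' processing notes. No source used here gives the annotation, the strand setting or how shared reads were counted, although the kit marks strand per the labels' protocols. Counts of overlapping genes are therefore uncertain. The library totals were between 14903878 and 19129008 counts.

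Counts were filtered with filterByExpr (minimum count 10, minimum total 15), scaled by TMM and fitted with edgeR 4.0.16 in R 4.3.3, with the group as the only term. Quasi-likelihood F tests were adjusted by Benjamini-Hochberg over 13572 genes and called at 0.05. SEs were obtained by dividing the size of each log2 fold change by the root of its F value, and intervals use the test's degrees of freedom. The common biological coefficient of variation was 0.153. Ratios between single libraries used log2 of CPM plus 0.5. DESeq2 1.42.0 and limma-voom (limma 3.58.1) were alternatives, as were other scalings and filters, a replicate block, each library left out, a stricter threshold, and a lowess trend of log-CPM (prior count 2, span 0.4) on transcript GC content used as an offset. Procedures were also run on simulated data, and the outcome is not reported here. Replicates differed beyond counting noise, with a chi-square per degree of freedom of 2.50 in the knockdown and 44.0 in Ctrl.

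Positions, exons and GC content (longest transcript) are from GENCODE v29 on GRCh38, the assembly also called hg38; 25862 symbols matched by name and 96.98% of tested genes had a GC value. Members and lists were chosen with earlier results of these data known. All members were named. In full detail are BRCA1, BRCA2, ATM, ATR, CHEK1, CHEK2, FANCD2, FANCI and the 2 members of each role with the smallest p, with some others added after their values were seen, and from each pathway list the 2 genes with the smallest p in each direction, a few of which are not reported here.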

Additional observations from a re-analysis of the deposited data

How the results depend on the processing

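Over all tested genes, 47 were higher and 40 lower. The counts were 328 and 406 with no filter, 1 and 4 with at least 5 CPM in 2 libraries, 188 and 222 in DESeq2, 1 and 2 at an adjusted p under 0.01, and 1791 and 1869 after the GC correction. With 1 library left out they ranged from 35 to 3407 higher and from 11 to 3315 lower. Of the members, 0 were called in the main analysis, 1 was lower with no filter and in DESeq2, and 12 were lower and 1 higher after the GC correction. With 1 library left out, 0 to 27 were lower and 0 to 5 higher. The members' median of -0.12 lay between -0.29 and -0.041 when 1 library was dropped and moved by less than the SD between libraries under the other alternatives. Leaving out a Ctrl library removes the gap between the Ctrl libraries from the estimate of spread. The GC correction removes the part of that gap that follows GC content. Otherwise the cause was not tested. The same-numbered libraries deviated together (correlation 0.34 across genes), but the labels do not say that a number marks a shared culture or day. With the replicate number as a block, 408 genes were higher and 480 lower, and 1 member, BRCA2, was lower; with the block and the GC correction the counts were 2216 and 2286, with 13 members lower and 1 higher.

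Of the 38 tested members, 21 kept their sign in all 14 alternative fits. The log2 fold changes that changed sign when 1 library was left out ranged as follows: RAD50 (-0.29 to 0.19), NBN (-0.34 to 0.21), RBBP8 (-0.36 to 0.21), BLM (-0.22 to 0.21), BARD1 (-0.26 to 0.19), PALB2 (-0.26 to 0.25), RAD51C (-0.26 to 0.20), XRCC2 (-0.34 to 0.24), XRCC3 (-0.35 to 0.33), FANCE (-0.16 to 0.22), FANCF (-0.075 to 0.21), FANCM (-0.36 to 0.13), ATM (-0.30 to 0.13), ATR (-0.21 to 0.17), CHEK2 (-0.27 to 0.035), CLSPN (-0.23 to 0.13), MUS81 (-0.20 to 0.50), MSH3 (-0.31 to 0.12), PMS1 (-0.29 to 0.19) and MLH3 (-0.0055 to 0.46). BLM was also positive with library-size scaling (0.011), after the GC correction (0.0065) and with the block added to it (0.0054), PALB2 with library-size scaling (0.0018), and FANCE was negative with the stricter filter (-0.021). AFF4 lost its call with the stricter filter (adjusted p = 0.0552) and at an adjusted p under 0.01. Every tested member had at least 119 counts in each library, and 2 libraries in each group limit the precision.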
